A study of Mus musculus with 24 samples.

Results

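The NF-kappaB core examined here comprised 10 genes, taken by symbol and not by their measured values. They were the 5 Rel family subunits Nfkb1, Nfkb2, Rela, Relb and Rel, the 3 subunits of the IkappaB kinase complex Chuk, Ikbkb and Ikbkg, and the inhibitors Nfkbia and Tnfaip3. All 10 were found among the 21366 genes with a symbol on the array, through 13 probes. RNA came from 6 female mice, each of which gave liver, brain, heart and skeletal muscle, for 24 arrays in 8 groups of 3. The KI mice (A, B and C) carried the Rap1 I312R allele, made with CRISPR/Cas9 and backcrossed to C57BL/6N (C57BL6 in the labels), which is labelled RAP1 MUT and changes a residue that RAP1, encoded by Terf2ip, needs to bind TRF2 at telomeres. The allele is not limited to a tissue, and the copies per mouse are not given in the labels; the study describes its knockin arrays as homozygous. The WT mice (D, E and F) carried no such change. Mice C and F were 14 months old and the others 15 months, and no treatment is labelled for either genotype. RAP1 outside the nucleus has been linked to the IkappaB kinases, and the comparison of KI with WT asks whether transcripts of this pathway's core differed in mice whose RAP1 cannot hold on to telomeres.

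NF-kappaB proteins act as dimers that are held in the cytoplasm by inhibitors. In the canonical branch a kinase complex of IKKalpha (Chuk), IKKbeta (Ikbkb) and the scaffold NEMO (Ikbkg) marks IkappaBalpha (Nfkbia) for destruction, and RelA bound to p50, which is cut from the Nfkb1 product, enters the nucleus. In the non-canonical branch IKKalpha triggers processing of p100, the Nfkb2 product, so that RelB and p52 are released. Nfkbia and Tnfaip3, which encodes the ubiquitin-editing enzyme A20, are themselves switched on by NF-kappaB and shut the response down again. Most of these steps act on proteins, whereas the arrays measured mRNA alone.

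Promoters of 3 members that lie within the feedback loops are shown, since NF-kappaB is known to switch these genes on. RefSeq promoter sequences (GRCm38.p6, 250 bases before to 50 bases after each start site) were at hand for 7 of the 10 members, and each is written 5′ to 3′ on the gene's strand. Capitals mark a form of the kappaB site, the letters GGG, any 2 bases, TT, any base and CC, found on either strand, and overlapping matches run together.
Nfkb2, chr19:46304487-46304786, plus strand: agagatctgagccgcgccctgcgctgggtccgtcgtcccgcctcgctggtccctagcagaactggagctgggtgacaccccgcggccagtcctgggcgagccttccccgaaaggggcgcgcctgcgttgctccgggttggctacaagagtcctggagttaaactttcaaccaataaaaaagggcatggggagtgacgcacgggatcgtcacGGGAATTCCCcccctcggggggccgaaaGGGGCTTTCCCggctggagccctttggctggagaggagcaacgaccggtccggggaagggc
Nfkbia, chr12:55492598-55492897, minus strand: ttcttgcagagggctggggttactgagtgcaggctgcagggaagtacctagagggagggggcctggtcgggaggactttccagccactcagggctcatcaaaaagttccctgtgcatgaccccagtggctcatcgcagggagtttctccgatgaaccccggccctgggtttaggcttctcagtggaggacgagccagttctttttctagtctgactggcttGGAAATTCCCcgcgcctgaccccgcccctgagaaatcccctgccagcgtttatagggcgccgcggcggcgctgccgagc
Tnfaip3, chr10:19015361-19015660, minus strand: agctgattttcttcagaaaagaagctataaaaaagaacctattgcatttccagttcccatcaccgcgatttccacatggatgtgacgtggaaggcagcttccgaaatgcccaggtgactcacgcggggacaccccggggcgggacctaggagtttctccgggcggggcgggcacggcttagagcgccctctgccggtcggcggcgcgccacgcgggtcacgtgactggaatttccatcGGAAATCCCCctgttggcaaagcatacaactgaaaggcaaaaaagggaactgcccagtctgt

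The Nfkb2 promoter held GGGAATTCCC, which reads as a match on both strands, from 39 bases before the start site, and then GGGGCTTTCC overlapping GGGCTTTCCC from 11 bases before it. The Nfkbia match began 29 bases and the Tnfaip3 match 12 bases before the start site. A match was found in 7 of 13 promoters of 5 of the 7 members, namely Nfkb2, Rel, Ikbkg, Nfkbia and Tnfaip3, and in 4.79% of the 32851 promoters in the table. The Nfkb2 promoters at chr19:46305445-46305744 and chr19:46305680-46305979 overlap and hold the same GGGACTTTCC, so that site is counted in both. By gene, 5.48% of 27025 genes had a match in any of their promoters. These letters were chosen with the members' promoters in view, so the 2 shares are a description. The promoters of Rela and Chuk held no such letters in this window.

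Levels are on the log2 scale, the processed signal relative to the 75th percentile of its own array, so that 1 unit is a 2-fold difference in signal and negative values lie below that percentile. A probe's level cannot be set against that of another probe, and only differences of the same gene between arrays are read. Every member but Rel was well above background on all 24 arrays. Rel, which encodes the c-Rel subunit, did not rise well above background in any sample (−8.34 to −5.59), so no order of tissues or genotypes is given for it, and 9 members were tested. No second probe was present for Rel, so a low transcript and a probe that reads poorly cannot be told apart.

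The labelled tissues matched their defining markers. The mean of the 4 liver markers lay at 8.29 to 9.08 in liver, that of the brain markers at 4.32 to 4.78 in brain, that of the heart markers at 4.95 to 8.42 in heart and that of the skeletal muscle markers at 9.15 to 9.79 in muscle. The heart markers split the hearts, with mice B (KI) and E (WT) at 8.42 and 7.36 and the others at 4.95 to 5.58. Of the brain markers, the Snap25 probe read 5.13 to 6.81 in heart and muscle too. A few arrays (3) carried transcripts of another tissue that were far lower in the other arrays of their own tissue. Alb, the albumin transcript, was at 6.54 in the brain of mouse C and at −7.10 to −0.82 in the other 5 brains. Myh4, a myosin of skeletal muscle, was at 1.48 in the liver of mouse C and at −7.50 to −5.64 in the other livers, and Wfdc18, a mammary epithelial transcript, was at 2.30 in the muscle of mouse B and at −6.42 to −6.13 in the other muscles. The muscles of mice B (KI) and D (WT) also carried neutrophil transcripts, with the mean of the 5 markers at 3.42 and 3.22 and all 5 well above background, against −4.18 to −3.46 in the other 4 muscles. The mean of the 4 fat markers was 1.29 to 3.54 in muscle, −3.35 to 0.05 in heart and −7.63 to −5.20 in liver and brain. Among hearts, that of mouse B (KI) was highest in fat markers (0.05, others −3.35 to −1.72). It was also highest in T cell markers (−1.27, others −2.51 to −1.90) and B cell markers (−1.08, others −3.62 to −2.40). The part of such cells in the members' levels was not tested. Terf2ip was measured at 0.34 ± 0.31 (SD, n = 3) in KI and 0.67 ± 0.24 in WT liver, 0.40 ± 0.22 and 0.55 ± 0.09 in heart, 1.08 ± 0.21 and 1.22 ± 0.23 in brain, and 0.85 ± 0.16 and 0.93 ± 0.06 in muscle. In the mean of its 4 tissues every KI mouse (0.56 to 0.76) lay below every WT mouse (0.82 to 0.85), a difference of −0.17 (SE 0.08, adjusted p = 0.984, limma). The genotypes did not overlap in this mean for 9.14% of 17292 genes. Where the Terf2ip probe lies relative to the changed bases was not tested, so its level is no check of the genotype.

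All 9 members differed between tissues (limma F-test over 24 arrays, adjusted p from 7.47e-14 for Chuk to 7.72e-07 for Tnfaip3), as did 97.6% of the 17292 genes tested. Brain held the lowest mean of 8 members, the exception being Ikbkb, which was lowest in muscle with brain next to it. Liver held the highest mean of Rela, Chuk, Ikbkb, Ikbkg and Nfkbia, heart that of Nfkb1 and Nfkb2, and muscle that of Relb and Tnfaip3. Against brain, 8 of 9 members were called higher in liver (all but Relb), where 84.4% of all genes differed in either direction, 8 in heart (all but Ikbkb), where 79.3% differed, and 8 in muscle (all but Ikbkb), where 82.2% differed. Liver differed from heart in 8 members, 5 higher in liver and 3 higher in heart, against 74.1% of all genes. Liver differed from muscle in 7, 5 higher in liver and 2 in muscle, against 79.1%. Heart differed from muscle in 6, 4 higher in heart and 2 in muscle, against 64.7%. The count for heart and muscle was 3 without mouse A. It was 5 without the brain and liver of mouse C and the muscles of mice B and D. Most of the transcriptome was called, and the shares over all genes count both directions together. Whether the members' directions set them apart from other genes was not tested, and only the size and order of the differences are read.

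The scaling by the 75th percentile left the median of all tested genes at different heights in the 4 tissues. It was 0.20 higher in liver than in brain, 0.22 lower in liver than in muscle, and 0.17 and 0.27 lower in brain than in heart and muscle. A difference with this shift taken off is called relative below. In whole tissue, fewer cells of an expressing type and less RNA per cell cannot be told apart. Liver and brain RNA was prepared with another kit and other beads than heart and muscle RNA, and all livers were on 1 slide and all muscles on another, so that tissue and these steps cannot be told apart in some contrasts. For 2 members the order is given within a slide. On the slide with all livers, the brains of mice A and D had Chuk at 1.42 and 1.60, below every liver (4.55 to 4.85). On the slide with all muscles, the hearts of mice C and F had Nfkb1 at −0.80 and −0.64, above every muscle (−1.54 to −1.10).

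**Figure D1:**
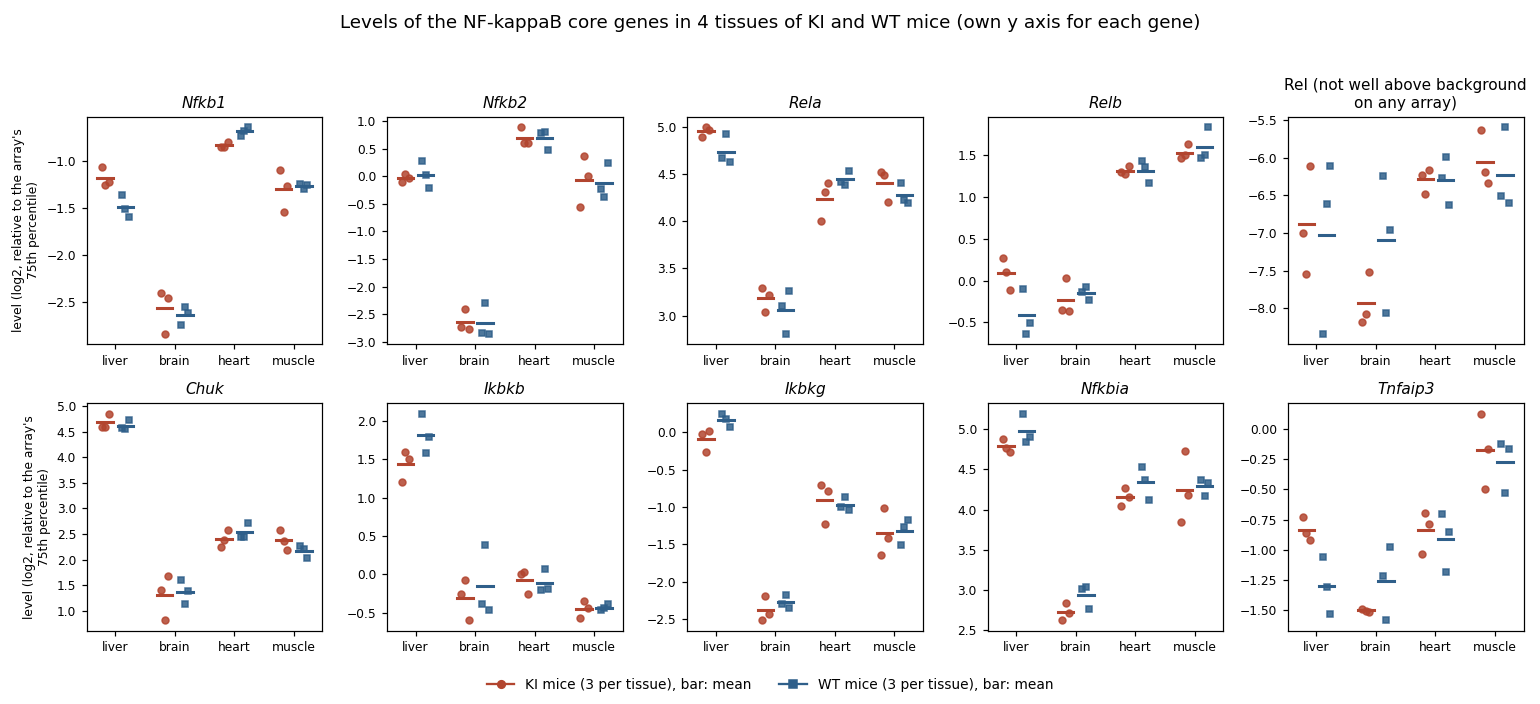
Levels (log2 processed signal minus the array's 75th percentile, own axis for each gene) of the 10 genes in 4 tissues, with 1 point per mouse and bars at the means of 3 KI and 3 WT mice. Brain lies lowest for 8 of the 9 detected members, while KI and WT points overlap in most tissues. Rel stayed near background throughout.

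Among the subunits, Nfkb2 had the widest span. Its lowest, median and highest levels over 6 mice were 0.47, 0.69 and 0.89 in heart, −0.21, 0.00 and 0.28 in liver, −0.56, −0.11 and 0.37 in muscle, and −2.85, −2.76 and −2.29 in brain. No brain came within 1 unit of any other tissue. Heart exceeded brain by 3.34 (SE 0.16, 10.2-fold; relative 3.17; limma adjusted p = 3.61e-13) and liver by 0.69 (SE 0.16, adjusted p = 0.000569), whereas liver and muscle did not differ beyond their spread (0.09, 95% interval −0.24 to 0.42).

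Nfkb1, the precursor of p50, was also highest in heart, at −0.85, −0.76 and −0.64, with muscle at −1.54, −1.26 and −1.10, liver at −1.59, −1.31 and −1.07, and brain at −2.83, −2.58 and −2.40. By this probe heart lay above all other tissues with no overlap. It exceeded brain by 1.84 (SE 0.09, 3.58-fold; relative 1.67; adjusted p = 6.90e-13) and muscle by 0.52 (SE 0.09, adjusted p = 5.60e-05), while muscle and liver did not differ beyond their spread (0.05, 95% interval −0.14 to 0.24).

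Relb, the partner of p52, had another order. It was at 1.46, 1.50 and 1.84 in muscle, 1.16, 1.33 and 1.43 in heart, −0.63, −0.11 and 0.27 in liver, and −0.37, −0.18 and 0.03 in brain. By this probe the 2 striated muscles stood apart from liver and brain with no overlap. Heart exceeded liver by 1.48 (SE 0.11, 2.79-fold, adjusted p = 2.78e-10), and muscle exceeded brain by 1.75 (SE 0.11, 3.37-fold; relative 1.48; adjusted p = 1.79e-11). Muscle exceeded heart by only 0.25 (SE 0.11, adjusted p = 0.0497), a call lost in 11 of 14 other settings and, with 1 mouse left out at a time, in 5 of 6 fits (0.15 to 0.31), all but the fit without mouse D. Liver and brain did not differ beyond their spread (0.02, 95% interval −0.20 to 0.25).

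Rela, which encodes the transactivating p65 subunit, spanned less. Liver was at 4.62, 4.91 and 4.998, heart at 4.00, 4.40 and 4.53, muscle at 4.19, 4.32 and 4.53, and brain at 2.81, 3.16 and 3.29. Every liver lay above every other tissue, and every brain below. Liver exceeded brain by 1.72 (SE 0.10, 3.30-fold; relative 1.52; adjusted p = 5.13e-12) and heart by 0.50 (SE 0.10, adjusted p = 0.000155). With quantile normalization liver and heart differed by only 0.000539 (adjusted p = 0.996), and the call was lost in 4 of 12 other settings. Heart and muscle did not differ beyond their spread (0.00021, 95% interval −0.21 to 0.21). With quantile normalization, however, heart exceeded muscle by 0.37 (adjusted p = 0.00255), and with normexp background correction by 0.35 (adjusted p = 0.00281).

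The kinase subunits shared a high level in liver. Chuk was at 4.55, 4.59 and 4.85 in liver, 2.25, 2.44 and 2.72 in heart, 2.03, 2.24 and 2.57 in muscle, and 0.82, 1.40 and 1.67 in brain. Its liver level was 2.18 above heart (SE 0.13, 4.52-fold, adjusted p = 1.50e-11) and 3.31 above brain (SE 0.13, 9.91-fold; relative 3.11; adjusted p = 1.56e-14). Heart and muscle did not differ beyond their spread (0.19, 95% interval −0.08 to 0.47), and muscle lay 0.94 above brain (SE 0.13, adjusted p = 2.20e-06). Heart was called higher than muscle with quantile normalization (0.38, adjusted p = 0.0213) and with normexp background correction (0.36, adjusted p = 0.0177).

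Ikbkb, the kinase subunit that acts in the canonical branch, was at 1.20, 1.59 and 2.10 in liver, −0.26, −0.10 and 0.07 in heart, −0.60, −0.32 and 0.38 in brain, and −0.57, −0.44 and −0.34 in muscle. Liver stood alone, 1.72 above heart (SE 0.14, 3.30-fold, adjusted p = 1.60e-09) and 2.07 above muscle (SE 0.14, 4.20-fold; relative 2.29; adjusted p = 9.15e-11). Neither heart and brain (0.14, 95% interval −0.16 to 0.44) nor brain and muscle (0.21, 95% interval −0.09 to 0.50) differed beyond their spread. Brain was called higher than muscle with median centring (0.50, adjusted p = 0.00286). It was also called with scores within arrays (0.17 in score units, adjusted p = 0.000818) and the value table (0.10 in score units, adjusted p = 0.0210). Ikbkg stepped down from tissue to tissue. It was at −0.27, 0.05 and 0.25 in liver, −1.22, −0.93 and −0.71 in heart, −1.64, −1.34 and −1.01 in muscle, and −2.52, −2.32 and −2.18 in brain. Only heart and muscle overlapped, and each tissue exceeded the next, by 0.97 (SE 0.12, adjusted p = 3.04e-07), 0.40 (SE 0.12, adjusted p = 0.00552, 0.28 and no longer called without mouse A) and 0.99 (SE 0.12, adjusted p = 2.05e-07), with liver over brain 5.15-fold (relative difference 2.16).

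The inhibitors differed from each other in order. Nfkbia was at 4.72, 4.86 and 5.19 in liver, 3.84, 4.25 and 4.73 in muscle, 4.05, 4.21 and 4.53 in heart, and 2.62, 2.80 and 3.03 in brain. Liver exceeded brain by 2.05 (SE 0.12, 4.15-fold; relative 1.85; adjusted p = 1.02e-11) and muscle by 0.61 (SE 0.12, adjusted p = 0.00018), while muscle and heart did not differ beyond their spread (0.02, 95% interval −0.24 to 0.28). With normexp background correction the contrast of muscle with heart was −0.32 and called (adjusted p = 0.0493). Tnfaip3 was at −0.53, −0.16 and 0.13 in muscle, −1.19, −0.82 and −0.70 in heart, −1.53, −0.99 and −0.73 in liver, and −1.59, −1.50 and −0.98 in brain. Muscle lay above every array of the other tissues, by 0.65 over heart (SE 0.13, adjusted p = 0.000287) and by 1.16 over brain (SE 0.13, 2.23-fold; relative 0.89; adjusted p = 1.49e-07). Its 3 lower tissues overlapped. Heart and liver did not differ beyond their spread (0.19, 95% interval −0.09 to 0.47), and liver against brain (0.31, SE 0.13, adjusted p = 0.0346) lost its call in 5 of 12 other settings and when any mouse but F was left out (0.23 to 0.44 over the 6 fits).

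A second probe was present for 3 members, and for 2 of them it gave another order. The Nfkb1 probe used had muscle next to liver, but the second Nfkb1 probe had muscle at −3.28, −2.47 and −2.44, beside brain at −2.98, −2.64 and −2.22 and 1.05 below liver (adjusted p = 1.37e-05). By that probe heart, at −1.87, −1.60 and −1.37, overlapped with liver at −2.05, −1.61 and −1.40, so that Nfkb1 in heart stood above all other tissues by the probe used alone. The second Relb probe was lowest in liver, at −1.25, −0.85 and −0.49, and 1.04 lower there than in brain (adjusted p = 3.04e-07), with brain at −0.16, 0.24 and 0.48. Both Relb probes had the striated muscles above liver with no overlap. By the second, however, brain overlapped with heart (0.19, 0.42 and 0.50) and with muscle (0.25, 0.44 and 0.77), with means of 0.18 in brain, 0.40 in heart and 0.47 in muscle. The second Ikbkg probe kept the order of the first, with medians of −0.70 in liver, −1.84 in heart, −2.40 in muscle and −3.28 in brain. Which transcripts of each gene a probe reads was not tested, so statements on Nfkb1 in heart and muscle and on Relb in liver and brain hold for the probe named.

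**Figure D2:**
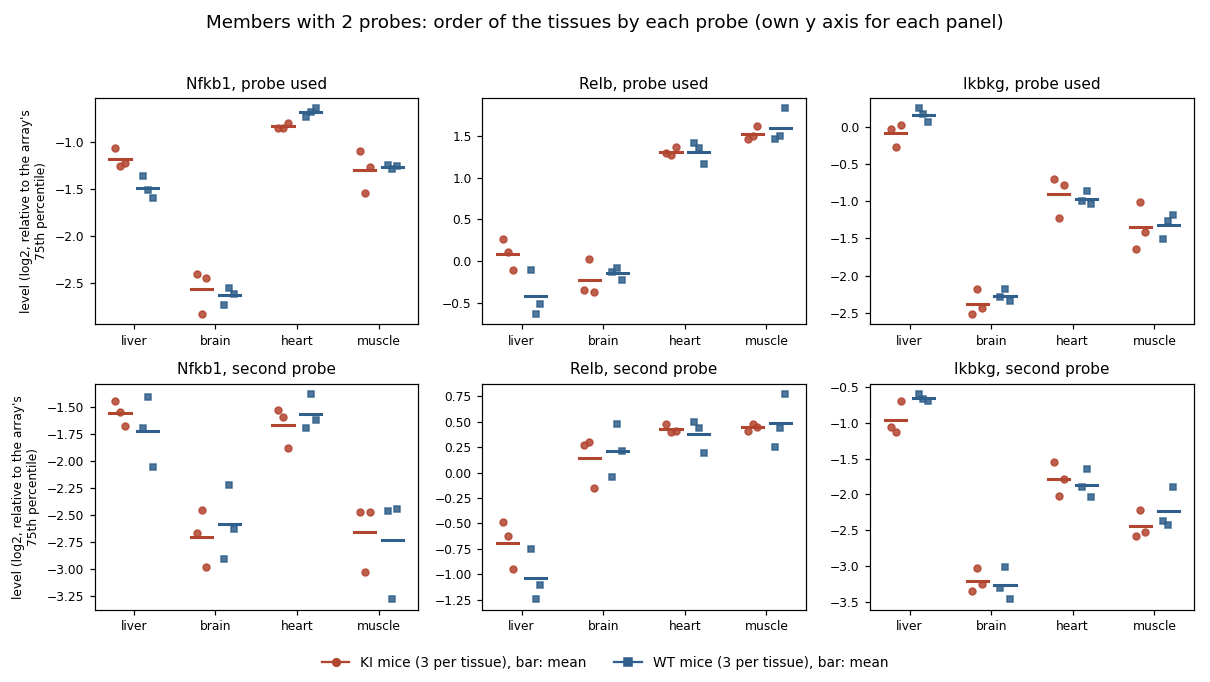
Levels (log2 relative to the array's 75th percentile, own axis for each panel) of Nfkb1, Relb and Ikbkg by the probe used and by the second probe, with 1 point per mouse and bars at the means of 3 KI and 3 WT mice. Muscle lies near liver for the Nfkb1 probe used and near brain for the second, liver lies below brain only for the second Relb probe, and both Ikbkg probes run from liver down to brain.

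Other genes of the pathway were read beside the core, from lists by role. Of 24 receptors and ligands tested, such as the Toll-like and TNF receptors, 18 were called higher in liver than in brain and none lower, with a relative median of 2.31, where 84.4% of all genes differed in either direction. Of 33 adaptors and upstream kinases, 23 were higher in liver and 6 in brain (relative median 0.69), and of 13 other inhibitors and IkappaB proteins, 10 and 3 (0.76). The 27 NF-kappaB target genes were split, 13 higher in liver and 8 in brain (0.30). Against heart, brain was lower in 17 receptors and ligands and higher in 2, and lower in 17 target genes and higher in 6 (79.3% of all genes differed). Between liver and muscle, the relative median was 2.06 for receptors and ligands (21 higher in liver, 2 in muscle), 1.65 for target genes (17 and 6) and near 0 for adaptors and kinases (−0.0018; 13 and 16), where 79.1% of all genes differed. These shares count both directions together, so whether the directions set the lists apart from other genes was not tested. Markers of macrophages and microglia, cells rich in these receptors, had a list mean of −1.47 to 0.51 in muscle, 1.40 to 2.38 in liver, 1.54 to 2.10 in heart and 1.61 to 1.77 in brain. Their part in these differences was not tested.

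No member was called between KI and WT in any tissue. In liver, brain, heart, muscle and each mouse's mean over its 4 tissues, 0 of 9 members passed limma's test at an adjusted p under 0.05, and neither did any other gene (0% of 14088, 16069, 14925, 13513 and 17292 genes). At an unadjusted p under 0.05, 3 members passed in liver and none elsewhere, against 11.8% of all genes in liver, 0.79% in brain, 1.63% in heart, 0.866% in muscle and 3.46% in the mean. The groups of 3 KI and 3 WT mice did not overlap for 3 members in liver, 1 in heart, 2 in the mean and none in brain or muscle, against 19.7% of all genes in liver, 5.03% in heart, 9.14% in the mean, 2.94% in brain and 3.61% in muscle. The members' differences ran from −0.39 to 0.50 in liver (median 0.06, over all genes 0.05), −0.24 to 0.13 in brain (−0.08, all −0.03), −0.20 to 0.08 in heart (0.00, all −0.05), −0.07 to 0.20 in muscle (−0.02, all 0.02) and −0.16 to 0.10 in the mean (0.02, all 0.01). The members' 95% intervals lay within −0.82 to 0.94 for liver, −0.56 to 0.49 for heart, −0.78 to 0.52 for brain, −0.63 to 0.74 for muscle and −0.44 to 0.38 for the mean, so that differences of such sizes could not be told from none with 3 mice a group.

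**Figure D3:**
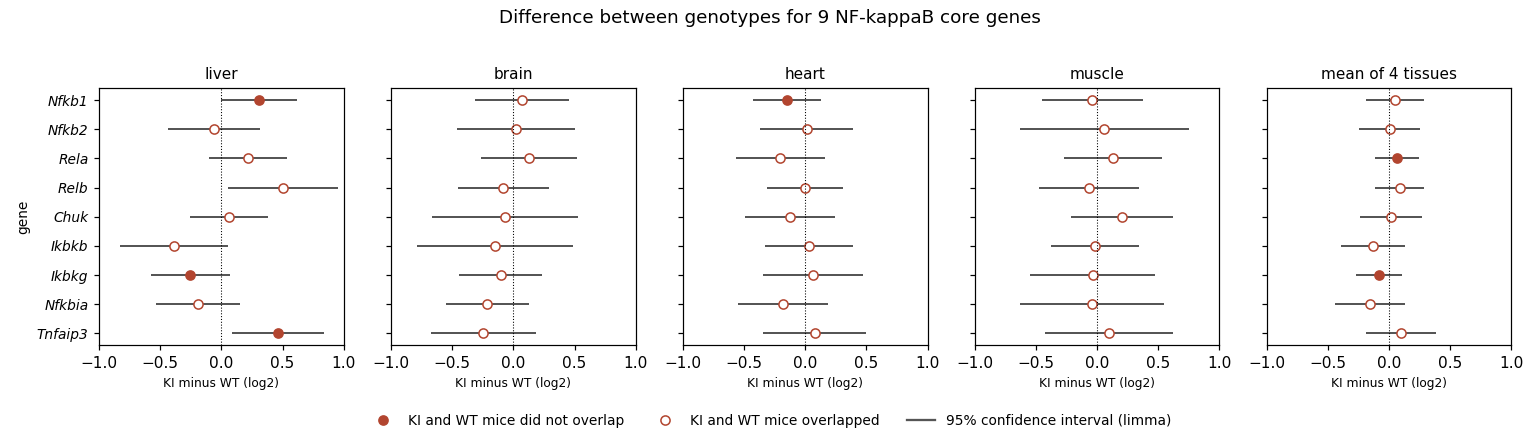
KI minus WT differences (log2, horizontal axis) of 9 members in each tissue and in the mean of 4 tissues, with 95% confidence intervals from limma; filled points mark genes whose 3 KI and 3 WT mice did not overlap. Differences lie between −0.39 and 0.50, and the intervals that leave out 0 are those of Tnfaip3, Relb and Nfkb1 in liver.

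Liver held the largest differences. Tnfaip3 was at −0.73, −0.86 and −0.92 in KI livers (mice A, B and C, in this order throughout), and at −1.06, −1.31 and −1.53 in WT livers (mice D, E and F). The groups did not overlap, and KI was 0.46 higher (SE 0.15, 1.38-fold, limma adjusted p = 0.396). Within the 14-month mice the difference was 0.62, and within the 15-month mice 0.39.

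Relb was at 0.27, 0.10 and −0.11 in KI livers and at −0.10, −0.63 and −0.51 in WT livers. The groups met at mice C and D, and KI was 0.50 higher (SE 0.18, 1.42-fold, adjusted p = 0.396), or 0.35 by the second probe (adjusted p = 0.482). Nfkb1 was at −1.07, −1.25 and −1.22 in KI and −1.36, −1.51 and −1.59 in WT livers. These did not overlap, and KI was 0.31 higher (SE 0.13, adjusted p = 0.422), or 0.16 by the second probe, at an adjusted p of 0.706. By that second Nfkb1 probe the genotypes overlapped.

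The scaffold gene Ikbkg differed the other way, at −0.02, −0.27 and 0.02 in KI and 0.25, 0.18 and 0.07 in WT livers, a difference of −0.25 (SE 0.13, adjusted p = 0.471). Within the 14-month mice the difference was −0.04 and within the 15-month mice −0.36. By the second Ikbkg probe it was −0.30 in liver. In brain that probe gave 0.05 (−0.10 by the probe used), in heart 0.07 (0.06) and in muscle −0.21 (−0.04). Ikbkb was at 1.20, 1.59 and 1.51 in KI and 2.10, 1.58 and 1.79 in WT livers, and Rela at 4.89, 4.998 and 4.97 against 4.67, 4.92 and 4.62, both with overlap. The remaining members, Chuk, Nfkb2 and Nfkbia, differed by 0.06, −0.06 and −0.19.

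Markers of other cells also stood apart by genotype in the same livers, with none called. The mean of 9 macrophage markers was 1.88 to 2.38 in KI and 1.40 to 1.62 in WT livers with no overlap. Of these, 8 were higher in KI, and for 7 the genotypes did not overlap and the unadjusted p was under 0.05 (median 0.61), beside 19.7% and 11.8% of all genes in liver. Csf1r, the receptor for the macrophage growth factor, was at 4.95, 4.69 and 4.92 in KI and 4.18, 4.18 and 4.10 in WT livers (adjusted p = 0.339). The mean of 5 neutrophil markers was −1.05 to −0.56 in KI and −1.74 to −1.08 in WT livers. T cell markers (−0.45 to 0.26 against −0.46 to 0.05), B cell markers (−2.14 to −0.90 against −2.78 to −0.98) and endothelial markers (0.08 to 0.41 against 0.05 to 0.33) overlapped. Array brightness differed too, with 75th percentile signals of 621.6, 746.2 and 669.8 in KI and 1337.8, 545.6 and 1071.8 in WT livers. The part of these in the values of Tnfaip3, Relb and Nfkb1 was not tested.

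**Figure D4:**
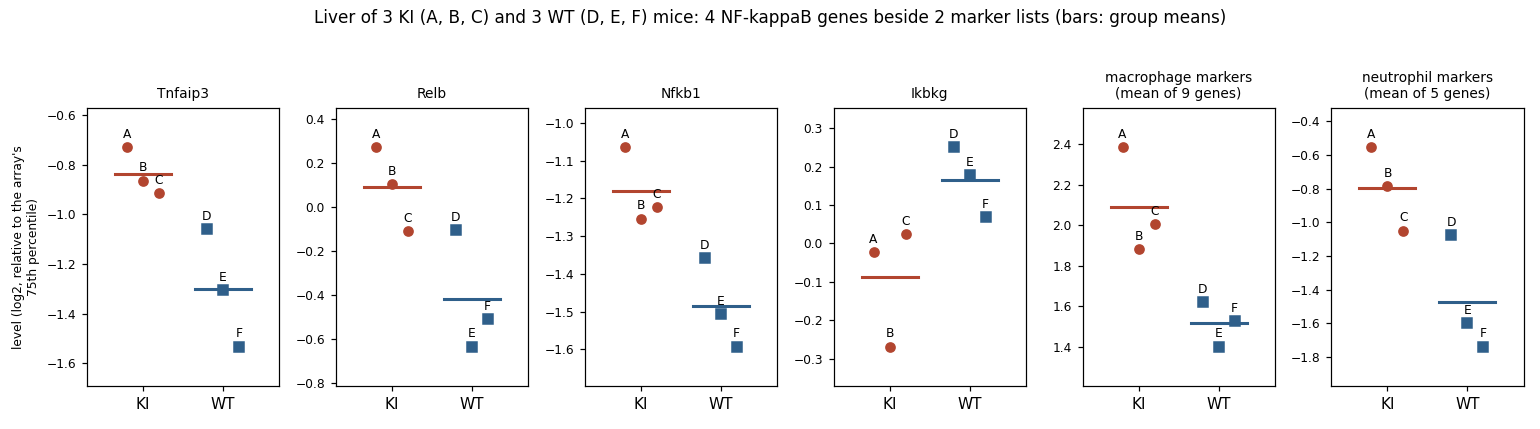
Liver levels (log2 relative to the array's 75th percentile) of Tnfaip3, Relb, Nfkb1 and Ikbkg in KI mice A to C and WT mice D to F, beside the mean levels of 9 macrophage and 5 neutrophil markers. The genotypes do not overlap for Tnfaip3, Nfkb1, Ikbkg (lower in KI) and both marker means, and meet for Relb at about −0.10.

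In brain the members of smallest p were the inhibitors. Nfkbia was at 2.62, 2.84 and 2.71 in KI mice and at 3.01, 3.03 and 2.76 in WT mice, a difference of −0.21 (SE 0.14, adjusted p = 1.00). Tnfaip3 was nearly constant in KI (−1.49, −1.51 and −1.51) and spread in WT (−1.22, −1.59 and −0.98), a difference of −0.24 (SE 0.18). Rela differed by 0.13 (SE 0.16). All 3 overlapped. Within the slide that held mice A and D, these differences were −0.39, −0.27 and 0.18, and within the other slide −0.12, −0.23 and 0.10.

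In heart, Nfkb1 was lower in KI (−0.85, −0.85 and −0.80) than in WT (−0.73, −0.68 and −0.64), the reverse of liver. The groups were tight and did not overlap, but the difference was small, at −0.15 (SE 0.11, adjusted p = 0.970), and was −0.14 within the slide of mice A, B, D and E and −0.16 within that of mice C and F. By the second Nfkb1 probe the difference was −0.10, with overlap. Rela, at 4.00, 4.31 and 4.41 in KI and 4.41, 4.39 and 4.53 in WT, differed by −0.20 (SE 0.15), or −0.24 and −0.12 within the slides. Nfkbia, at 4.05, 4.27 and 4.16 against 4.53, 4.37 and 4.12, differed by −0.18 (SE 0.15), but by −0.29 within the former slide and 0.03 within the latter. The heart slides also split the mice by age.

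In muscle, Chuk was at 2.57, 2.37 and 2.19 in KI mice and at 2.27, 2.22 and 2.03 in WT mice, a difference of 0.20 (SE 0.17, adjusted p = 1.00). Rela differed by 0.13 (SE 0.17) and Tnfaip3 by 0.10 (SE 0.22), with overlap, and the Tnfaip3 difference was −0.0548 without mouse A and −0.0303 without mouse E. Muscle of mouse A stood low in Nfkb2 (−0.56), Ikbkg (−1.64) and Nfkbia (3.84), and that of mouse B high (0.37, −1.01 and 4.73), so that KI muscles spread more widely than WT muscles in all 3 genes. In that muscle of mouse B the markers of other cells were also high, with list means of 3.42 for neutrophils, −1.17 for T cells (others −3.61 to −2.60), −1.72 for B cells (others −4.43 to −3.54) and 0.51 for macrophages (others −1.47 to 0.08). Their part in the values of mouse B was not tested. Without the muscles of mice B and D, which both carried neutrophil transcripts, no member was called, and the KI minus WT difference was 0.25 for Chuk, 0.16 for Rela and 0.33 for Tnfaip3.

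In the mean of 4 tissues, Nfkbia was at 3.85, 4.15 and 3.94 in KI mice and at 4.28, 4.10 and 4.03 in WT mice, a difference of −0.16 (SE 0.12, adjusted p = 0.984). Ikbkb differed by −0.13 (SE 0.11) and Relb by 0.09 (SE 0.08). The genotypes did not overlap for Rela, at 4.18, 4.21 and 4.20 against 4.15, 4.09 and 4.15, or for Ikbkg, at −1.22, −1.17 and −1.15 against −1.14, −1.04 and −1.12. In both cases the nearest mice of the 2 genotypes lay close together. The genotype effect was not shown to differ between tissues for any member (interaction F-test over 24 arrays, adjusted p = 1.00 for each of the 9, limma), nor for any gene tested (0% of 17292).

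The other pathway genes had no call between genotypes either. Among 13 other inhibitors and IkappaB proteins, the gene of smallest p in every comparison was Nfkbiz, an inducible atypical IkappaB protein that acts in the nucleus. In liver it was at −2.29, −2.33 and −2.01 in KI mice and at −1.46, −1.69 and −1.02 in WT mice, with no overlap and a difference of −0.82 (SE 0.20, adjusted p = 0.339). In brain it was at −4.84, −4.57 and −4.34 against −3.85, −4.01 and −4.29, again without overlap (−0.53, SE 0.19). It differed by −0.59 in muscle and by 0.30 in heart, with overlap in both, and by −0.41 in the mean of 4 tissues (SE 0.14, adjusted p = 0.984), where KI mice (−3.39, −3.00 and −3.19) lay below WT mice (−2.81, −2.60 and −2.93).

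Receptors and ligands were higher in KI liver for 18 of 24 genes (median 0.23), against 8021 of 14088 over all genes, with Tlr4, the endotoxin receptor, at −2.52, −2.65 and −2.36 in KI livers and −3.02, −3.20 and −3.14 in WT livers (0.61, SE 0.13, adjusted p = 0.339). At an unadjusted p under 0.05, 3 of these genes were higher in KI and 2 lower, namely Il1r1 (−0.67) and Il1rap (−0.43). Target genes were higher for 14 of 22 (median 0.13), and 6 of them had an unadjusted p under 0.05, all higher in KI, beside 11.8% of all genes in liver (1114 higher and 552 lower). Vcam1, an adhesion molecule of activated endothelium, had the smallest p, at 1.83, 1.94 and 1.75 against 1.74, 0.98 and 0.98 (0.60, adjusted p = 0.405). Of 33 adaptors and upstream kinases 16 were higher, and Ikbke, a kinase related to the IkappaB kinases, was at −1.18, −1.39 and −1.25 in KI and −0.57, −0.89 and −0.74 in WT livers (−0.54, adjusted p = 0.341). Macrophage markers were higher in the same KI livers, and their part in these values was not tested.

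In brain, heart and muscle the lists' medians lay between −0.09 and 0.16, and the gene of smallest p was, in brain, Tnfrsf13c among receptors (0.51) and Ptgs2 among targets (−0.39). In heart these were Ltb (0.88) and Lcn2 (0.43), with Traf1 (0.29) among adaptors, and in muscle Tnfrsf11a (−0.28) and Irf1 (0.44), all with adjusted p of 0.970 or above. In the mean of 4 tissues the genes were Tlr6 (0.46) among receptors, Traf1 (0.41) among adaptors and, among targets, Ccl2, a chemokine for monocytes (0.33, SE 0.08, adjusted p = 0.984).

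Immediate early genes, which respond within minutes to many stimuli, and genes that respond to glucocorticoids were read beside these. Of 13 immediate early genes, 2 were higher in KI liver (median −0.46), 3 of 12 in brain (−0.05), 5 of 13 in heart (−0.14), 2 of 12 in muscle (−0.21) and none in the mean of 4 tissues (−0.27). Over all genes tested, 8021 of 14088 were higher in KI in liver, 6358 of 16069 in brain, 5690 of 14925 in heart, 7372 of 13513 in muscle and 9006 of 17292 in the mean. The genes of smallest p were Jun in liver (−0.46), Atf3 in brain (0.56), Dusp1 in heart (−0.39), and Egr1 in muscle (−1.73) and in the mean (−0.50), none of them called. Mouse E (WT) had the highest mean of the list in muscle (2.08, others 0.38 to 1.01), liver (0.02, others −0.92 to −0.51) and heart (0.67, others 0.04 to 0.55). In liver, WT mice D and F (−0.58 and −0.54) lay below KI mouse C (−0.51). The part of mouse E in these differences was not tested. Of the 10 glucocorticoid response genes, 4, 4, 1, 4 and 3 were higher in the 5 comparisons (medians −0.09, −0.05, −0.27, −0.03 and −0.13). Per1 had the smallest p in liver (−0.66), heart (−0.40) and the mean (−0.30), Sgk1 in brain (−0.33) and Fkbp5 in muscle (0.58). The part of these genes' signals in the values of the core was not tested.

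Within groups, the members did not vary as a single unit. The SD within groups was smallest for Nfkb1 (0.13, percentile 5.44 of 11614 genes detected on all arrays) and largest for Nfkb2 (0.27, percentile 62.3), beside a median of 0.24 over all these genes. After subtraction of the 8 group means, Nfkb2 varied over the 24 arrays with Nfkbia (Pearson r 0.70), Ikbkg (0.69) and Ikbkb (0.64), and Rela with Chuk (0.60), while Nfkb2 and Chuk (−0.65) and Relb and Chuk (−0.62) ran in opposite directions. The deviations of Ikbkb (0.71), Nfkb2 (0.64), Nfkbia (0.61) and Relb (0.55) also went with the log2 75th percentile signal of the array, and that of Rela against it (−0.54). The points share arrays and that percentile was subtracted from every level, so these coefficients are a description, and the part of array brightness was not tested.

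**Figure D5:**
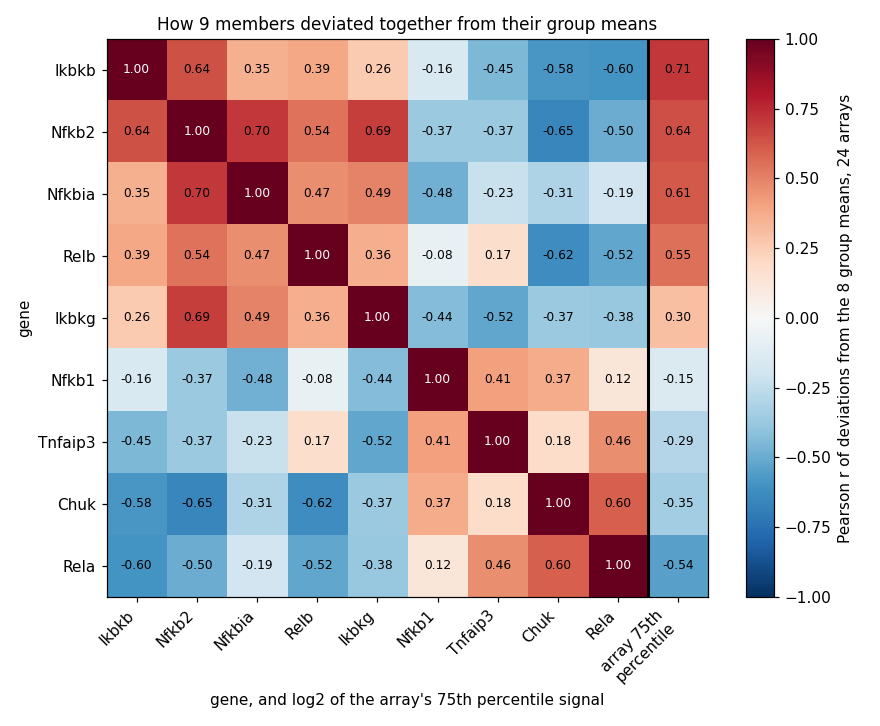
Pearson r over 24 arrays between deviations of 9 members from their 8 group means, with a last column for the log2 75th percentile signal of the array. Ikbkb, Nfkb2, Nfkbia, Relb and Ikbkg have positive r with each other and with array brightness (0.30 to 0.71), and negative r with Chuk and Rela.

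The genes whose deviations were most like those of the feedback inhibitors, out of 11614 and over the same 24 arrays, were Gpsm3 (r = 0.90), Marcksl1 (0.90), Dok3 (0.89), Izumo4 (0.89) and Sh3bp1 (0.87) for Nfkbia. For Tnfaip3 they were Zfp455 (0.85), Zfp945 (0.83), Klhl15 (0.81), Zfp40 (0.80) and 1700122E12Rik (0.80). The 2 sets had no gene in common.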

How the data were processed

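RNA of 24 samples was hybridized to 1-colour Agilent arrays. The authors deposited scanner intensity files (Feature Extraction 12.0.3.1, background-subtracted signals, design build mm9) and a series value table, whose deposited score column per sample matched z-scores of log2 intensity within each array to 0.005. No column of the authors' own comparisons was used.

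Control spots and 121 to 347 outlier spots per array were left out. Levels were log2 of the processed signal minus each array's 75th percentile (312.4 to 2510.4 in signal units), and spots of a probe were averaged. A gene was read by its brightest probe over all arrays. Genes well above background on all 3 arrays of a genotype in the tissue were tested. Tests over 24 arrays and of the mean took the 17292 genes that passed in at least 1 tissue. Per array, 49.4% to 68.4% of probes were well above background. The number of arrays limits the precision. KI and WT were compared in each tissue, in the mean of each mouse's 4 tissues and for differences between tissues, and tissues were compared over 24 arrays, by lmFit and eBayes (limma 3.58.1, R 4.3.3) with Benjamini-Hochberg adjustment at 0.05 over all genes tested. The scripts were tested on simulated data.

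The same animals gave all tissues, by the labels' mouse numbers. Deviations from group means correlated at 0.0204 between tissues of a mouse and at −0.00923 between other mice of its genotype over 11614 genes.

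Named were all members, the 3 members of smallest p per genotype comparison, the gene of smallest p per pathway list and the 5 genes most like Nfkbia and Tnfaip3 in their deviations. The adaptor of smallest p in brain and in muscle is not reported here. Members, lists and tests were chosen with earlier results of these data known. Alternatives were quantile, median and z-score scaling, normexp background correction, the value table, other probes, no filter, array weights, a mouse block, 1 genotype only and leaving out each mouse. Chosen after seeing the data was the second probe alone, over all arrays. Separate fits by the probe used, also chosen then, left out the 3 arrays that carried transcripts of another tissue, or these with the muscle of mouse D (neutrophil transcripts). Between genotypes, another such fit left out the muscles of mice B and D.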

Additional observations from a re-analysis of the deposited data

Results flagged for a closer look

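Nfkb1 was marked for a closer look because its genotypes were ordered in opposite ways in 2 tissues. By the probe used, every KI liver lay above every WT liver (0.31) and every KI heart below every WT heart (−0.15). The difference in liver less that in heart was 0.45 on the log2 scale. Over all genes tested, the genotypes did not overlap for 19.7% in liver and 5.03% in heart. The test of whether the genotype effect of Nfkb1 differed over all 4 tissues did not pass (limma F-test, adjusted p = 1.00), and the contrast of liver with heart alone was not tested. By the second Nfkb1 probe the differences were 0.16 and −0.10, and the genotypes overlapped in both tissues. Its liver levels were −1.44, −1.54 and −1.67 in KI against −1.69, −1.40 and −2.05 in WT mice. Its heart levels were −1.52, −1.59 and −1.87 against −1.69, −1.37 and −1.62.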

How the results depend on the processing

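No member was called between KI and WT, or for a genotype effect that differed between tissues, under any alternative run. In the fit that used the animal as replicate block (pairing by mouse, consensus correlation −0.000702) the members called between tissues stayed at 8, 8, 7, 8, 8 and 6, and no call on a member changed. The count called between heart and muscle, 6, was 3 with KI arrays only and ranged from 3 (without mouse A) to 5 with 1 mouse left out. The other counts between tissues stayed within 6 to 9.

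Contrasts that turned sign were, in most cases, near 0 to begin with, and the cause was not tested. Median centring gave −0.20 for Relb in liver against brain, −0.0139 for Nfkb1 in muscle against liver, −0.12 for Ikbkb in heart against brain and −0.0111 for Nfkbia in muscle against heart. Scores within arrays gave, in the same contrasts of Relb, Nfkb1 and Ikbkb, −0.0699, −0.0416 and −0.0233, and −0.00358 for Tnfaip3 in liver against brain and −0.00480 for Rela in heart against muscle. The value table gave −0.0333, −0.0175 and −0.00167 for Relb, Nfkb1 and Rela there. Quantile normalization gave −0.0613 for Nfkb1 and −0.34 for Nfkbia. Normexp gave −0.0360 and −0.32 for these and −0.00184 for Rela in liver against heart. The mean of all probes gave −0.51 for Relb and −0.50 for Nfkb1, and the second probe −1.04 and −1.05. WT arrays only gave −0.27 for Relb, −0.0398 for Tnfaip3 in liver against brain and −0.0523 for Nfkbia. KI arrays only gave −0.12 for Nfkb1, −0.17 for Rela in heart against muscle and −0.00211 for Tnfaip3 in heart against liver. Array weights gave −0.0300 for Nfkbia, and −0.10 was found without the 3 arrays that carried transcripts of another tissue and −0.12 without these and the muscle of mouse D. Some contrasts not called in the main fit were called under other scalings. These were Rela and Chuk in heart against muscle with quantile normalization and normexp, and Nfkbia in muscle against heart with normexp. Ikbkb in brain against muscle was called with median centring, scores within arrays and the value table.

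With 1 mouse left out, Relb in liver against brain ranged from −0.0516 to 0.0954, Nfkb2 in liver against muscle from −0.0144 to 0.24, Rela in heart against muscle from −0.0923 to 0.0904, Nfkbia in muscle against heart from −0.0721 to 0.0936 and Tnfaip3 between genotypes in muscle from −0.0548 to 0.26. Dim probes limit Rel, for which no contrast was given.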
